A study of Mus musculus with 10 samples.

Results

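The canonical histone genes of the mouse were followed in total RNA of CD31-positive cells from B16F10 melanomas. B16F10 cells are a pigmented melanoma line of the mouse. All symbols that start with Hist1h, Hist2h, Hist3h or Hist4h were taken, 71 of the 28454 symbols listed in every library. They comprise 6 H1, 20 H2A, 20 H2B, 12 H3 and 13 H4 symbols. Libraries came from 6 adult Shb-inactivated tumour-bearing mice (strain label Shbflox/flox/Cdh5-CreERt2) and 4 wild-type ones (strain label Cdh5-CreERt2). Both groups thus carry, by their labels, a tamoxifen-dependent Cre recombinase driven by the promoter of Cdh5, a gene active in endothelium, and differ in the floxed Shb alleles. The product of Shb is an SH2-domain adaptor in receptor tyrosine kinase signalling. CD11b-positive myeloid cells had been depleted on magnetic beads before CD31 selection, per the labels' protocols. The source label names tumours and lungs, whereas the tissue label names tumours alone.

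Replication-dependent histones are made when DNA is copied. The H2A, H2B, H3 and H4 proteins form the core of the nucleosome, and H1 binds the linker DNA between nucleosomes. Their mRNAs carry no poly(A) tail and end just after a short stem-loop, which SLBP binds and which directs processing, translation and rapid decay when S phase ends. Selection of poly(A) RNA loses most of these transcripts, whereas the total RNA libraries made here after removal of ribosomal RNA keep them. Mki67 and Top2a, which encode a nuclear protein and a DNA topoisomerase of cycling cells, are polyadenylated and high in G2 and mitosis.

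The stem-loop is shown first, because it is what separates these mRNAs from others. It was searched for in the transcripts of GENCODE vM21 (GRCm38). That annotation lists 69 of the 71 symbols, all but Hist2h2bb.1 and Hist2h2bb.2. A hit was any 16 bases with a stem of 6 base pairs opening with GG and 2 pyrimidines, around a loop of 4 bases opening with TT. Of the 69 genes, 44 had a hit, in 6 distinct versions. Capitals mark the stem and loop, with 5 transcript bases on each side in lower case.
Hist1h1e: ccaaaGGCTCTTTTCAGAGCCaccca
Hist2h2ac: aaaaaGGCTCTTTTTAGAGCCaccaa
Hist1h2bb: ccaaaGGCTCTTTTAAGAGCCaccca
Hist1h3c: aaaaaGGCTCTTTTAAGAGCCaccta
Hist1h4d: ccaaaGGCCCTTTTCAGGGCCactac
Hist1h4b: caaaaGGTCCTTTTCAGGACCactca
Hist1h4i: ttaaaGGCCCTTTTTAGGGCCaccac
The H1, H2A, H2B and H3 examples carry a GGCTC stem and vary in the loop, whereas Hist1h4d carries GGCCC, Hist1h4b GGTCC and Hist1h4i GGCCC with another loop. The version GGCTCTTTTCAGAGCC stood in 26 genes and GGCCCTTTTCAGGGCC in 7. The hit lay within 100 bases of the end of the gene model in 22 genes and farther upstream in another 22. In Hist1h1e the model ran on for 1153 bases after the stem-loop, in Hist1h1d for 4884 and in Hist1h4d for 770, while in Hist1h2bb it ended 23 bases after it. Of 21901 protein-coding genes of the annotation, 66 (0.301%) had a hit anywhere in a transcript. Within 100 bases of the end 24 (0.110%) had a hit, and 2 of these 24 lay outside the histone symbols. The 25 histone genes without a hit had a median gene model of 411 bases and include models that stop short of any stem-loop. No hit says only that these letters are not in the model.

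Promoters are shown for 3 abundant genes of different families, to set the elements of these families side by side. The windows are from RefSeq (GRCm38.p6) and run from 250 bases before to 50 bases after the annotated start. Hist1h1e is at chr13:23622509-23622808 on the minus strand, Hist1h2bb at chr13:23746484-23746783 on the plus strand and Hist1h4d at chr13:23581318-23581617 on the plus strand. Capitals mark 4 elements, searched on both strands: the CCAAT box, a TATA element written TATAAA, the octamer of the H2B promoters with the letters ATTTGCAT, and the so-called H1 box, which reads AAACACA.
Hist1h1e: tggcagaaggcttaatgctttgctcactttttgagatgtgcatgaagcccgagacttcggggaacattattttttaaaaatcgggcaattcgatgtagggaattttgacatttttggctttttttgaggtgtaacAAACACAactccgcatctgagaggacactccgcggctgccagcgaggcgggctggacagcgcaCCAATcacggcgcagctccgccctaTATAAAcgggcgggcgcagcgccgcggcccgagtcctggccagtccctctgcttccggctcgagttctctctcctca
Hist1h2bb: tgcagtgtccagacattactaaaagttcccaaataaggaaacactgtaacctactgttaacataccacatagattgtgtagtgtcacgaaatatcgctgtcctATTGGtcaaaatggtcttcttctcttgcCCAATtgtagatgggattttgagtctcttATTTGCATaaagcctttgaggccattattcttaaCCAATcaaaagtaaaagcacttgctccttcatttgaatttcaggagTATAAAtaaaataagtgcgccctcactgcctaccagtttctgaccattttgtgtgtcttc
Hist1h4d: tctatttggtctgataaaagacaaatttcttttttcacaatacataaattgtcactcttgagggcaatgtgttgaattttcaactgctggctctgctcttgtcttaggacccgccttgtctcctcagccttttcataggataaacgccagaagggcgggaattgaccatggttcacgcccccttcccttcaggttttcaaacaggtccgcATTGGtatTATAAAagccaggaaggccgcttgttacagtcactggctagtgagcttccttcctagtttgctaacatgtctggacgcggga
Of the 71 symbols, 60 had such a window. CCAAT stood in 51 of the 60 (85.0%), against 37.9% of all 27025 RefSeq promoters, and TATAAA in 58.3%, against 14.2%. All 48 H1, H2A, H2B and H3 windows held CCAAT, whereas 3 of 12 H4 windows did, that of Hist1h4d among them. The octamer was found in 7 of 17 H2A and 5 of 15 H2B windows, that of Hist1h2bb among them. None of the 6 H1, 10 H3 and 12 H4 windows held it (1.75% of all promoters did). The H1 box was found in 5 of 6 H1, 2 of 17 H2A and 2 of 15 H2B windows and in none of the H3 and H4 windows (7.14% of all promoters). H2A and H2B genes often stand head to head, so that their windows overlap and are not separate counts. A match is a run of letters, not a measured site.

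In the annotation, 56 genes lie on chromosome 13, 9 on chromosome 3, 3 on chromosome 11 and 1 on chromosome 6. The largest group on chromosome 13, 31 genes between chr13:23531050-23934851, had a summed mean of 3659 FPKM. The 19 genes at chr13:21715763-21837530 summed to 987 and the 5 at chr13:22035164-22043676 to 269.8. Near-identical coding sequences make assignment of reads among these genes uncertain. A median of 49.3% of a gene's 50-base windows recurred exactly in another histone gene, and 32 genes shared at least 50% of them. The family median was 1.105% for H1 and 73.2% for H2A genes, with wide spread within families, since Hist1h1e shared 32.004% of its windows and Hist3h2a 2.00%.

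Across the 10 libraries, summed histone FPKM made up 0.533% to 1.88% of all FPKM, with 50.4% of the sum in 10 genes. The sum was 6720, 4668, 4624, 4489, 2981 and 4966 FPKM in Shb-inactivated libraries 1 to 6, against 3885, 6843, 4187 and 10222 FPKM in wild-type libraries 1 to 4. Shb-inactivated library 5 was the lowest and wild-type library 4 the highest, and the groups overlapped. H4 held 33.6% of the mean sum, H2B 29.4%, H1 17.9%, H3 11.5% and H2A 7.60%. Of the 71 symbols, 61 were above 0 in every library, 55 had at least 1 FPKM in every library and 19 averaged at least 100 FPKM. There were 57 zeros among the 710 values, 38 of them in the 6 Shb-inactivated and 19 in the 4 wild-type libraries. The depth of each library is unknown, since FPKM hold no totals. In bulk RNA, fewer cells in S phase and less histone mRNA per cell cannot be told apart.

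**Figure D1:**
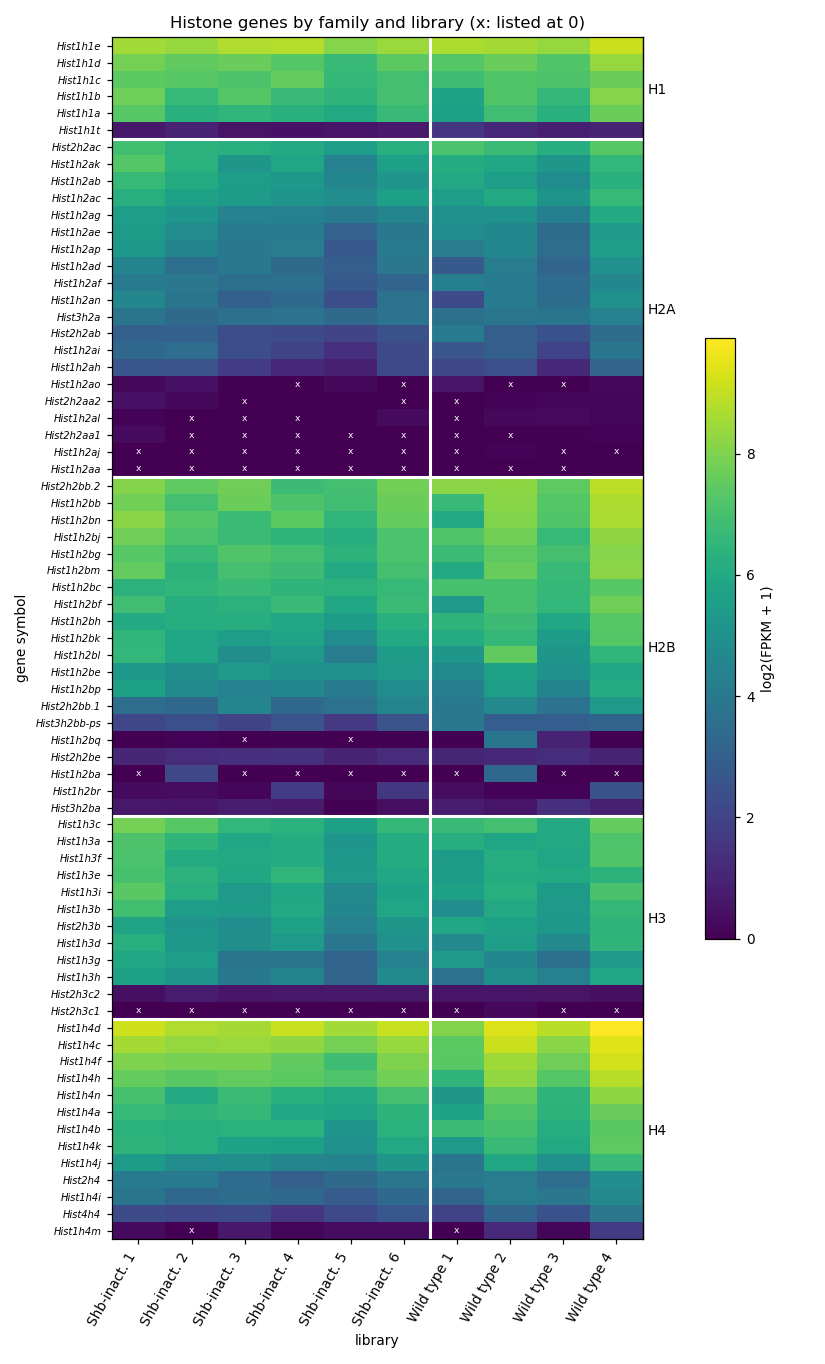
log2(FPKM + 1) of all 71 histone symbols (vertical axis, grouped by family and ordered by mean) in 6 Shb-inactivated and 4 wild-type libraries (horizontal axis). Crosses mark the 57 values listed at 0, which sit in 10 symbols, and Shb-inactivated library 5 and wild-type library 4 are the darkest and the brightest column over most families.

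The linker histone genes were led by Hist1h1e, Hist1h1d and Hist1h1c. Hist1h1e ranged from 277.8 to 448 FPKM (median 359) in Shb-inactivated libraries, against 409, 385, 322 and 561 FPKM in wild-type libraries. Hist1h1d ranged from 103 to 231 FPKM (median 173) in Shb-inactivated libraries, against 158, 199, 148 and 327 FPKM in wild-type libraries. Hist1h1c, whose mRNA can also end in a poly(A) tail in differentiated cells, ranged from 95.8 to 188 FPKM (median 150.2) in Shb-inactivated libraries, against 115, 147, 141 and 206 FPKM in wild-type libraries. All 3 were highest in wild-type library 4 and lowest in Shb-inactivated library 5, and their groups overlapped. Hist1h1a averaged 102 FPKM and Hist1h1b 135 FPKM over the 10 libraries. Hist1h1t, the testis linker histone that the symbol rule also takes in, stayed at 0.38 to 0.93 FPKM in Shb-inactivated and 0.82 to 1.97 FPKM in wild-type libraries.

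Among H2A genes, Hist2h2ac of the chromosome 3 cluster was the most abundant, with 46.2 to 120.2 FPKM (median 74.9) in Shb-inactivated libraries, against 135, 106.5, 71.7 and 159 FPKM in wild-type libraries. Hist1h2ak had 20.3 to 155 FPKM (median 51.2) in Shb-inactivated libraries, against 68.5, 59.7, 36.6 and 94.7 FPKM in wild-type libraries. Hist1h2ab had 22.1 to 99.0 FPKM (median 41.4) in Shb-inactivated libraries, against 63.0, 46.6, 27.3 and 77.9 FPKM in wild-type libraries. For Hist1h2ak and Hist1h2ab the highest library was Shb-inactivated library 1, not wild-type library 4, and the groups overlapped for all 3. Hist2h2ab was far lower, with 3.12 to 7.34 FPKM (median 4.31) in Shb-inactivated libraries, against 16.3, 7.04, 4.63 and 10.2 FPKM in wild-type libraries.

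The H2B genes were led by Hist2h2bb.2, with 110 to 265 FPKM (median 196) in Shb-inactivated libraries, against 294, 301, 176 and 492 FPKM in wild-type libraries. The other entry of that name, Hist2h2bb.1, had 9.24 to 22.0 FPKM in Shb-inactivated and 12.9 to 38.9 FPKM in wild-type libraries. Neither entry was matched to the annotation. Hist1h2bb had 117 to 219.6 FPKM (median 175) in Shb-inactivated libraries, against 102, 282, 158 and 415 FPKM in wild-type libraries. Hist1h2bn had 91.3 to 284 FPKM (median 163) in Shb-inactivated libraries, against 65.6, 259, 149.98 and 398 FPKM in wild-type libraries. Hist1h2bb and Hist1h2bn were lowest in wild-type library 1 and highest in wild-type library 4. Hist1h2bc had a narrow range, with 80.8 to 105 FPKM (median 88.9) in Shb-inactivated libraries, against 129.9, 129.8, 97.0 and 161 FPKM in wild-type libraries. Its groups overlapped through wild-type library 3 alone.

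Of the H3 genes, Hist1h3c had 48.1 to 226 FPKM (median 94.5) in Shb-inactivated libraries, against 101, 122, 66.5 and 189 FPKM in wild-type libraries. Hist1h3a had 35.6 to 139.9 FPKM (median 69.4) in Shb-inactivated libraries, against 70.7, 56.7, 63.2 and 146 FPKM in wild-type libraries. Hist1h3f had 38.1 to 135 FPKM (median 68.4) in Shb-inactivated libraries, against 41.4, 70.8, 56.0 and 147 FPKM in wild-type libraries. All 10 tested H3 genes were lowest in Shb-inactivated library 5, and 5 were highest in Shb-inactivated library 1 and 5 in wild-type library 4. Hist1h3e had 40.2 to 130.1 FPKM (median 70.98) in Shb-inactivated libraries, against 43.9, 69.8, 63.8 and 83.2 FPKM in wild-type libraries, and Hist2h3b had 19.8 to 53.9 FPKM (median 36.0) in Shb-inactivated libraries, against 59.5, 49.7, 37.9 and 85.7 FPKM in wild-type libraries.

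H4 genes held the highest single values. Hist1h4d had 368 to 581 FPKM (median 482) in Shb-inactivated libraries, against 262, 673, 474 and 963 FPKM in wild-type libraries. Hist1h4c had 225 to 377 FPKM (median 329) in Shb-inactivated libraries, against 169, 554, 284 and 679 FPKM in wild-type libraries. Hist1h4f had 113 to 251 FPKM (median 234) in Shb-inactivated libraries, against 164, 358, 216 and 600.3 FPKM in wild-type libraries. Wild-type libraries thus spanned more than the Shb-inactivated ones, with wild-type library 1 lowest for Hist1h4d and Hist1h4c and wild-type library 4 highest for all 12 tested H4 genes. Hist1h4b had 35.8 to 80.1 FPKM (median 79.5) in Shb-inactivated libraries, against 108, 128, 71.1 and 165 FPKM in wild-type libraries. Hist1h4i had 6.18 to 13.5 FPKM (median 9.24) in Shb-inactivated libraries, against 8.18, 16.9, 14.3 and 24.1 FPKM in wild-type libraries.

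**Figure D2:**
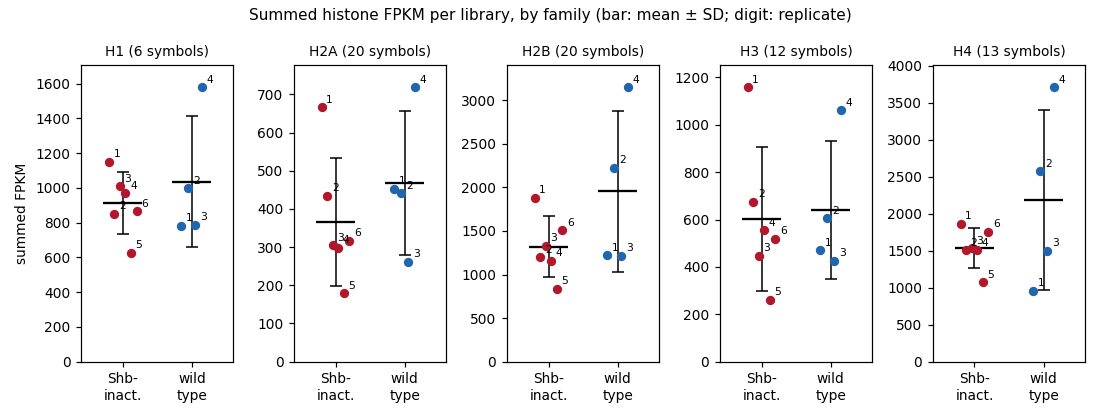
Summed FPKM per library (vertical axes, from 0) for each histone family, in 6 Shb-inactivated and 4 wild-type libraries; digits give the replicate and bars the mean ± SD. The groups overlap in every family, and wild-type library 4 is highest in H1, H2A, H2B and H4, while Shb-inactivated library 1 is highest in H3 with 1158 FPKM.

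Some symbols of the families are testis variants or pseudogenes, or were barely measured. Hist1h2ba, the testis H2B gene, was listed at 0 in 8 libraries and at 3.36 FPKM in Shb-inactivated library 2 and 9.08 FPKM in wild-type library 2. Hist1h2bq had 13.5 FPKM in wild-type library 2, 0.92 FPKM in wild-type library 3 and at most 0.06 FPKM in the other 8. Hist1h2bl was also highest in wild-type library 2, at 181 FPKM against at most 93.7 FPKM elsewhere. Of their 50-base windows, 97.3% of those of Hist1h2bq, 82.8% of those of Hist1h2bl and 38.2% of those of Hist1h2ba recurred in another histone gene, so that their values are uncertain. Hist1h2aa (testis H2A), the pseudogene Hist1h2aj and Hist2h3c1 were each listed at 0 in 9 of 10 libraries. Hist2h2be had only 0.93 to 1.63 FPKM in Shb-inactivated and 0.98 to 1.46 FPKM in wild-type libraries, 239 bases from the far more abundant Hist2h2ac.

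H2A and H2B genes stood head to head, within 500 bases, in 14 pairs, of which 10 had both genes tested. In 8 of these 10 the H2B gene had the higher mean FPKM. The ratio of the H2B gene to its H2A partner ran from 0.0135 for Hist2h2be over Hist2h2ac to 19.9 for Hist1h2bk over Hist1h2ah. Of the 50-base windows, 74.2% of those of Hist1h2bk and 90.7% of those of Hist1h2ah recurred in another histone gene, so that this ratio is uncertain. The pairs' log2(FPKM + 1) values correlated over 10 libraries with a median Pearson r of 0.70 (range -0.38 to 0.94), beside a median of 0.66 over all 224 H2A and H2B combinations. The lowest value was that of Hist2h2ac with Hist2h2be. Over all 1596 pairs of tested histone genes the median r was 0.71. These genes share their libraries and, in part, their sequence.

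Mki67 and Top2a were read as markers of proliferation from the same libraries, so they share the differences between these. Mki67 was at 54.0, 33.3, 52.3, 45.3, 20.6 and 34.2 FPKM in Shb-inactivated libraries 1 to 6, against 48.1, 37.5, 33.1 and 46.6 FPKM in wild-type libraries 1 to 4. Top2a was at 111, 64.4, 123, 105, 54.9 and 89.4 FPKM in Shb-inactivated libraries 1 to 6, against 99.1, 97.3, 74.6 and 138 FPKM in wild-type libraries 1 to 4. Shb-inactivated library 5 was lowest for both genes and for the histone sum, but wild-type library 4, with by far the most histone RNA, was the fourth highest for Mki67. Mki67 and Top2a themselves correlated with r = 0.89 and rho = 0.88 over 10 libraries on the log2(FPKM + 1) scale. Neither passed the test between groups: the log2 fold change was -0.098 (SE 0.25, exact permutation p = 0.790, adjusted limma p = 0.994) for Mki67 and -0.19 (SE 0.25, exact permutation p = 0.505, adjusted limma p = 0.989) for Top2a.

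Over all 10 libraries the histone sum followed Top2a more closely than Mki67, but not within the Shb-inactivated group, as a description with no test. Its correlation with Top2a was r = 0.71 and rho = 0.50 over 10 libraries, and r = 0.62 without the 2 libraries farthest from the Top2a median (Shb-inactivated 2 and 5). With Mki67 it was r = 0.54 and rho = 0.37, and r = 0.12 without Shb-inactivated libraries 1 and 5, so that relation rested on those libraries. The libraries left out differ between Top2a and Mki67, so r = 0.62 and r = 0.12 are not from the same set. Within the 6 Shb-inactivated libraries r was 0.69 with Top2a and 0.82 with Mki67; the 4 wild-type libraries are too few for a value. With the marker sums of cell types, r over 10 libraries was -0.092 for melanoma, -0.23 for macrophage and monocyte and 0.11 for endothelial markers. Without the 2 libraries farthest from each marker's median it was -0.50 for melanoma (without Shb-inactivated 5 and wild-type 1), -0.11 for macrophage and monocyte (without Shb-inactivated 3 and wild-type 3) and -0.22 for endothelial markers (without wild-type 1 and 3).

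By family, the closest agreement was that of H1, by a wider margin with Top2a than with Mki67. Summed H1 FPKM correlated with Top2a at r = 0.84 and rho = 0.83, and at r = 0.84 without Shb-inactivated libraries 2 and 5. With Mki67 it correlated at r = 0.69 over all libraries, at r = 0.43 without Shb-inactivated libraries 1 and 5, and at r = 0.98 within the Shb-inactivated libraries, which took the same order for both measures. With Mki67 the summed H2A FPKM had r = 0.69 and the summed H3 FPKM r = 0.66, close to that of H1. With Top2a the next highest was summed H2B FPKM, at r = 0.72. Summed H4 FPKM correlated with Mki67 at r = 0.30 and with Top2a at r = 0.57. Taken singly, all 57 tested genes were positively correlated with both, beside 50.2% of all other tested genes with Mki67 and 44.4% with Top2a. The median r of the 57 was 0.47 with Mki67, beside 0.0024 over all genes, and 0.58 with Top2a, beside -0.040. Without the 2 libraries farthest from each median it was 0.0997 with Mki67 and 0.51 with Top2a. At an unadjusted permutation p of r under 0.05, 12 of the 57 were positively correlated with Mki67, beside 3.69% of all genes, and 20 with Top2a, beside 3.37%. By rho these counts were 4 with Mki67, beside 2.61% of all genes, and 6 with Top2a, beside 3.15%. After Benjamini-Hochberg adjustment over 12804 genes, 0 of the 57 passed with either gene, beside 0% of all genes. The smallest p was that of Hist1h1e with Top2a, at r = 0.90 (permutation p = 0.00034, adjusted p = 0.128) and rho = 0.89 (permutation p = 0.0012, adjusted p = 0.371). Its r was 0.87 without the 2 libraries and 0.88 within the Shb-inactivated group. The difference between families in r was not tested.

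**Figure D3:**
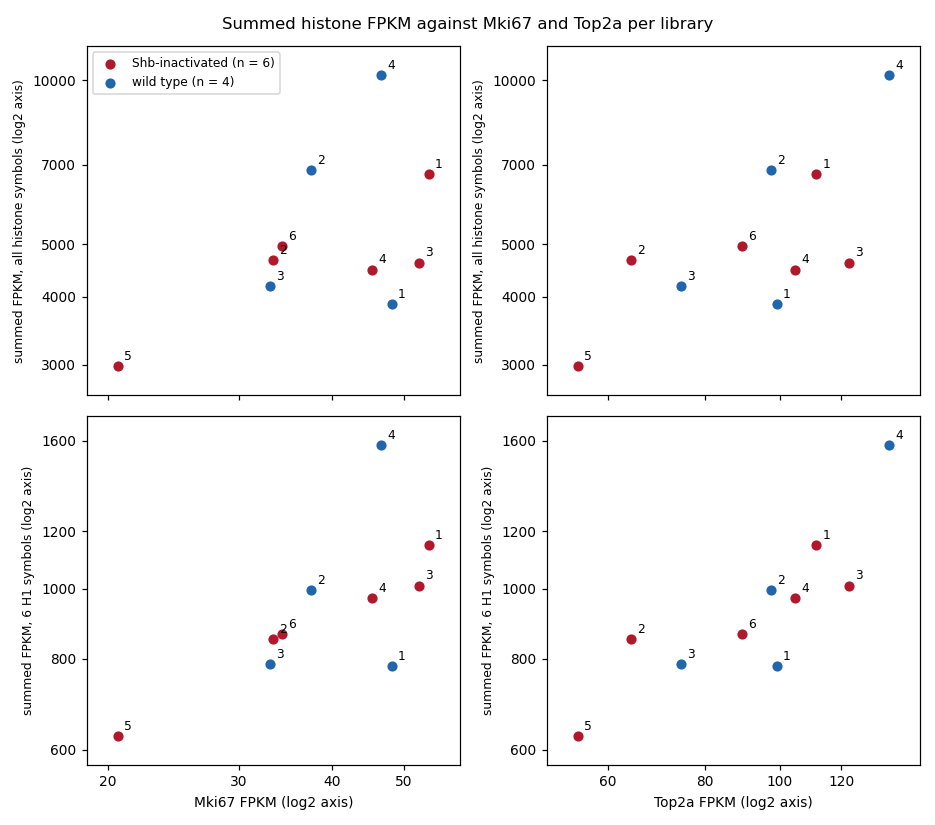
Summed FPKM of all 71 histone symbols (top) and of the 6 H1 symbols (bottom) against Mki67 (left) and Top2a (right), with both axes in FPKM on a log2 scale and 1 point per library (6 Shb-inactivated, 4 wild type; digits give the replicate). The H1 sum follows Top2a with r = 0.84, whereas the sum of all histones against Mki67 has r = 0.54 and lies widest at wild-type libraries 1 and 4.

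The balance between families was not constant. The ratio of summed H4 to summed H3 FPKM was 1.61, 2.23, 3.43, 2.71, 4.12 and 3.39 in Shb-inactivated libraries 1 to 6, against 2.04, 4.26, 3.53 and 3.50 in wild-type libraries 1 to 4. The ratio of H2B to H2A was 2.82, 2.76, 4.37, 3.89, 4.69 and 4.77 in Shb-inactivated libraries 1 to 6, against 2.69, 5.06, 4.67 and 4.38 in wild-type libraries 1 to 4. Both ratios were lowest in the same 3 libraries, Shb-inactivated 1 and 2 and wild-type 1, and the groups overlapped. Those 3 libraries also had the lowest summed snoRNA (41 symbols of small nucleolar RNAs), at 636 and 1846 FPKM in Shb-inactivated libraries 1 and 2 and 1851 FPKM in wild-type library 1, whereas the other 7 had 3138 to 11473 FPKM.

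This comparison was chosen after the values were seen and is given without a test. On the log2 scale of the snoRNA sum the H4 to H3 ratio had r = 0.91 and rho = 0.77 over 10 libraries, r = 0.93 without Shb-inactivated library 1 and wild-type library 4, and r = 0.96 within the Shb-inactivated libraries. The H2B to H2A ratio had r = 0.84 and rho = 0.72, r = 0.93 without those 2 libraries, and r = 0.89 within the Shb-inactivated libraries. With Mki67 the same 2 ratios had r = -0.53 and -0.39, and with Top2a -0.16 and -0.015. Gene by gene, the mean log2(FPKM + 1) of the 3 libraries low in snoRNA minus that of the other 7 had a median of 0.55 for H2A, 0.32 for H3, -0.050 for H1, -0.084 for H2B and -0.35 for H4. Over 55 genes this difference had a Spearman rho of 0.48 with the GC content of the longest transcript, whose median was 64.4% for H2A, 60.1% for H3, 56.4% for H2B, 54.5% for H1 and 54.5% for H4. Within families rho was 0.35 for H2A, 0.12 for H2B, 0.38 for H3 and 0.27 for H4, lower than the pooled value. The part of fragment size or base composition in this pattern was not tested.

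**Figure D4:**
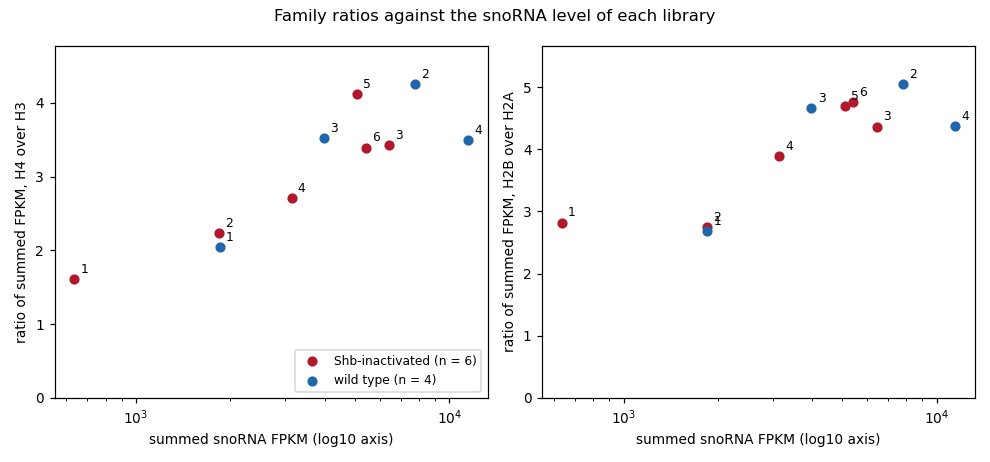
Ratio of summed FPKM of H4 to H3 (left) and of H2B to H2A (right), on linear axes from 0, against the summed snoRNA FPKM of each library on a log10 axis (6 Shb-inactivated and 4 wild-type libraries; digits give the replicate). The 3 libraries under 2000 FPKM of snoRNA have H4 to H3 ratios of 1.61 to 2.23, below all the others.

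Between Shb-inactivated and wild-type libraries no histone gene passed the test. Summed histone FPKM averaged 4741 ± 1196 in Shb-inactivated libraries (SD, n = 6) and 6284 ± 2942 in wild-type libraries (SD, n = 4), a ratio of 0.754. By family the ratio was 0.880 for H1, 0.783 for H2A, 0.676 for H2B, 0.941 for H3 and 0.705 for H4, and the groups overlapped in each. Without wild-type library 4 the log2 ratio of the sums was -0.069 in place of -0.41, so most of the difference in means came from that library, which also had the highest snoRNA sum. Without the 3 libraries low in snoRNA the log2 ratio was -0.73. A fit with summed snoRNA as covariate, chosen after seeing the data, is given below. The part of these library differences in the result was not tested otherwise.

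A total of 57 histone genes had at least 1 FPKM in at least 4 libraries and were tested among 12805 genes. With limma on log2(FPKM + 1), 0 histone genes were higher and 0 lower at a Benjamini-Hochberg adjusted p under 0.05, beside 0% of all genes in either direction. At an unadjusted p under 0.05, 0 were higher, beside 1.69% of all genes, and 7 were lower (12.3%), beside 1.76% of all genes. The median log2 fold change of the 57 was -0.34, with 53 below 0, beside a median of 0.0055 and 48.8% below 0 over all genes. Without wild-type library 4 the median was -0.030, with 31 of 57 below 0, and 2 genes (3.51%) at an unadjusted p under 0.05, beside 5.22% of all genes in either direction. Without Shb-inactivated library 5 the median was -0.21, with 3 such genes (5.26%, beside 1.98% of all genes). Other libraries left out moved it the other way. The median was -0.51 without wild-type library 1 (14 genes or 24.6%, beside 2.49%), -0.49 without wild-type library 3 (14 genes, beside 5.28%) and -0.72 without the 3 libraries low in snoRNA (13 genes or 22.8%, beside 4.33%). The genes vary together across libraries, so that 1 library moves most of them.

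By family the median log2 fold change was -0.079 for 5 H1 genes, -0.35 for 14 H2A, -0.43 for 16 H2B, -0.16 for 10 H3 and -0.48 for 12 H4 genes. All 14 H2A and all 12 H4 genes were below 0, as were 15 of 16 H2B, 8 of 10 H3 and 4 of 5 H1 genes. The 3 most abundant H4 genes had log2 fold changes of -0.19 for Hist1h4d (SE 0.32), -0.22 for Hist1h4c (SE 0.35) and -0.54 for Hist1h4f (SE 0.36), and the first 2 were above 0 without wild-type library 4. Hist1h1e stood at -0.18 (95% interval -0.58 to 0.22), and Hist1h3e, the highest of the tested genes, at 0.17 (95% interval -0.49 to 0.84).

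The 7 genes with an unadjusted limma p under 0.05 were Hist1h2bc, Hist1h2bh, Hist1h4b, Hist1h4i, Hist2h2ab, Hist2h2bb.2 and Hist3h2bb-ps, and each had an adjusted p of 0.989. Hist1h2bc had a log2 fold change of -0.49 (SE 0.14, exact permutation p = 0.0143) and Hist1h4b one of -0.70 (SE 0.28, exact permutation p = 0.0476). Hist1h2bh averaged 64.0 ± 12.54 FPKM in Shb-inactivated libraries (SD, n = 6) and 104 ± 42.6 FPKM in wild-type libraries (SD, n = 4). Hist2h2ab and Hist2h2bb.2, which both lie in the Hist2 group by name, had log2 fold changes of -0.73 (SE 0.31) and -0.74 (SE 0.32). Hist2h2bb.1, the lower entry of the same name, had -0.60 (SE 0.35) and was not among the 7.

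Groups that did not overlap were found for 0 histone genes higher in Shb-inactivated libraries, beside 0.539% of all tested genes, and for 1 lower, beside 0.18%. That gene was Hist3h2bb-ps, annotated as a processed pseudogene on chromosome 11 and 173 bases from Hist3h2a. It was at 3.29, 4.39, 3.04, 4.78, 2.16 and 4.75 FPKM in Shb-inactivated libraries 1 to 6, against 14.8, 6.79, 6.89 and 8.22 FPKM in wild-type libraries 1 to 4. Its log2 fold change was -1.07 (SE 0.24, exact permutation p = 0.00476, the smallest that 210 splits can give, adjusted limma p = 0.989), and it ranked 4th of 12805 genes by unadjusted p. The gene was named because its groups did not overlap, so this permutation p largely repeats that choice and adds no support. Wild-type library 1, its highest, also had the highest melanoma marker sum, and these sums ran from 14.1 to 428 FPKM in Shb-inactivated and from 93.5 to 1232 FPKM in wild-type libraries over 8 markers found. With the mean melanoma marker level as a covariate its log2 fold change was -0.72, and without wild-type library 1 it was -0.84. Its r with the histone sum was 0.25, so it did not follow the abundant histone genes.

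**Figure D5:**
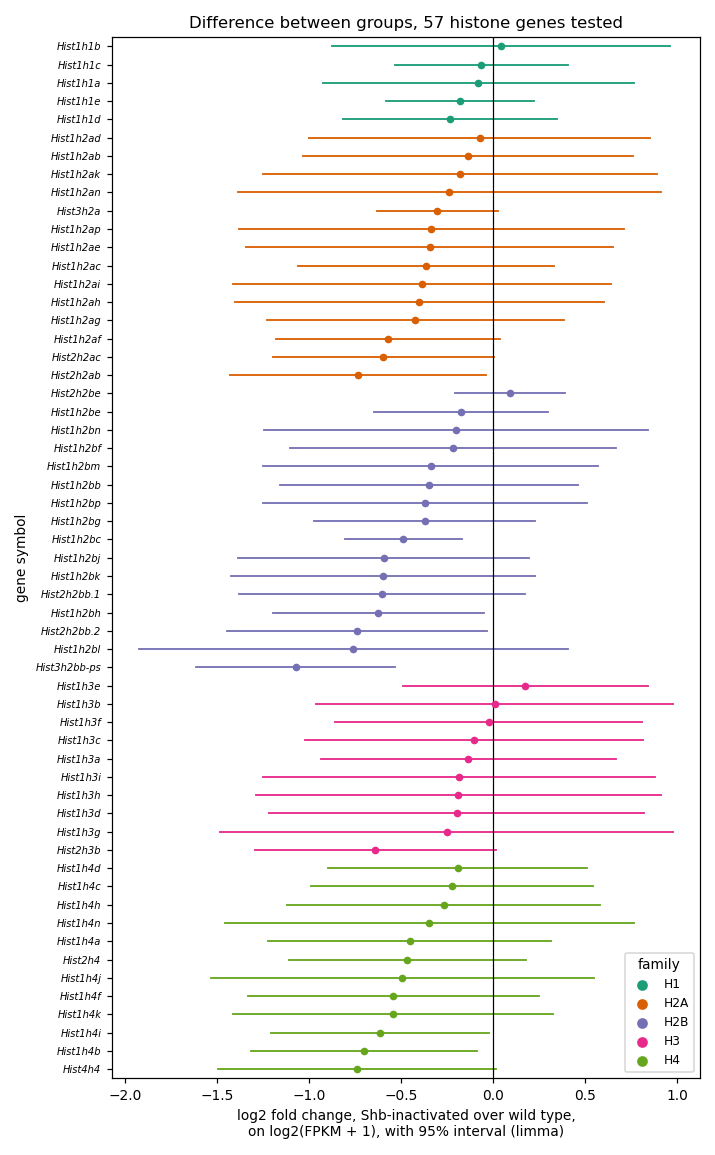
log2 fold change, Shb-inactivated over wild type, of the 57 tested histone genes (points) with 95% limma intervals (lines), on log2(FPKM + 1), by family. Of the points, 53 lie below 0, but 50 of the 57 intervals include 0, and none passed adjustment over 12805 genes.

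Genes that act with histone synthesis were read from fixed lists, and none passed the adjusted test. Of 22 S-phase and replication genes, 20 had a log2 fold change below 0, beside 48.8% of all tested genes, and the median was -0.20. The 2 above 0 were the most abundant of the list, Pcna at 0.097 (SE 0.19) and Mcm6 at 0.077 (SE 0.14). Pcna, the sliding clamp of DNA polymerase, averaged 141 ± 25.9 FPKM in Shb-inactivated libraries (SD, n = 6) and 134 ± 32.3 FPKM in wild-type libraries (SD, n = 4). Mcm6, a subunit of the replicative helicase, averaged 68.8 ± 9.34 FPKM in Shb-inactivated libraries and 65.3 ± 10.9 FPKM in wild-type libraries (SD, n = 6 and 4). Of 14 mitosis genes, 12 were below 0 with a median of -0.17, among them Cdk1 at -0.13 (SE 0.28). The counts of these lists use all 10 libraries and are not given without wild-type library 4. Of 13 genes for histone mRNA processing and decay, 11 were tested and 6 were below 0, with a median of -0.045. Slbp, which encodes the stem-loop binding protein, averaged 49.9 ± 8.66 FPKM in Shb-inactivated libraries (SD, n = 6) and 51.6 ± 10.01 FPKM in wild-type libraries (SD, n = 4). Cstf2, a subunit of the cleavage complex, had a log2 fold change of 0.14 (SE 0.17).

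The list of replacement and variant histones, most of which are made outside S phase too, had 6 of 9 tested genes below 0 and a median of -0.12. It takes in Cenpa, which encodes the centromeric H3, and H2afx, which encodes H2A.X and whose mRNA can also end in a stem-loop. Their r with the histone sum was 0.75 for Cenpa and 0.79 for H2afx. H3f3a, which encodes H3.3, averaged 465 ± 74.9 FPKM in Shb-inactivated libraries (SD, n = 6) and 453 ± 168 FPKM in wild-type libraries (SD, n = 4), and its r with the histone sum was -0.11. H2afz, which encodes H2A.Z, averaged 332 ± 43.3 FPKM in Shb-inactivated libraries (SD, n = 6) and 351 ± 108 FPKM in wild-type libraries (SD, n = 4), and its r with the histone sum was 0.88. Of 12 histone chaperones, 8 were below 0 with a median of -0.12. The most abundant were Npm1 at -0.17 (SE 0.15) and Set at 0.012 (SE 0.15). Chaf1b, a subunit of the chromatin assembly factor that loads new H3 and H4 at replication forks, stood at -0.45 (SE 0.19). It was the 1 gene of these lists with an unadjusted limma p under 0.05. That is 1 of 12 chaperones and 0 of the 22, 14, 11 and 9 tested genes of the other lists, beside 3.45% of all genes. Chaf1b did not pass adjustment over 12805 genes and was chosen after its value was seen.

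The 5 tested genes outside the family most like the histone sum, by Pearson r of log2(FPKM + 1) over 10 libraries, were Ulbp1 (r = 0.95), Smpdl3b (0.94), Mxd3 (0.93), Tyms (0.93) and Cdk1 (0.93). Tyms encodes thymidylate synthase. Cdk1 is the mitotic cyclin-dependent kinase, and Ulbp1 a ligand of the NK cell receptor NKG2D. Tyms averaged 47.7 ± 13.9 FPKM in Shb-inactivated libraries (SD, n = 6) and 50.7 ± 17.5 FPKM in wild-type libraries (SD, n = 4). They were picked from 12805 genes for this likeness, so their r is a description.

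The libraries behind these values stood as follows. Shb itself had 0.37 to 1.44 FPKM in Shb-inactivated libraries, against 2.78 to 5.44 FPKM in wild-type libraries (exact permutation p = 0.00476, adjusted limma p = 0.989). Spearman correlations between libraries ran from 0.841 to 0.977. Summed over the markers listed for each cell type, endothelial genes ran from 3548 to 4913 FPKM in Shb-inactivated and from 3052 to 3994 FPKM in wild-type libraries, and no marker found of any list was at 0 in any library. Macrophage and monocyte genes ran from 34.7 to 4442 FPKM in Shb-inactivated and from 33.9 to 5883 FPKM in wild-type libraries, and were high in Shb-inactivated libraries 3 and 4 and wild-type library 3. B cell genes ran from 17.4 to 131 FPKM in Shb-inactivated and from 78.2 to 179 FPKM in wild-type libraries, and T and NK cell genes from 4.80 to 22.5 FPKM in Shb-inactivated and from 11.3 to 27.6 FPKM in wild-type libraries. Fibroblast and pericyte genes ran from 45.5 to 631 FPKM in Shb-inactivated and from 119 to 433 FPKM in wild-type libraries. Erythroid genes ran from 4.58 to 83.7 FPKM in Shb-inactivated and from 14.2 to 19.6 FPKM in wild-type libraries, and platelet genes from 85.1 to 576 FPKM in Shb-inactivated and from 154 to 997 FPKM in wild-type libraries. Without the 3 myeloid-rich libraries the median log2 fold change of the tested histone genes was -0.49. Their part in the histone values was not tested otherwise.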

How the data were processed

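RNA was sequenced from CD31-positive cells of B16F10 tumours in 10 libraries, 6 Shb-inactivated and 4 wild type. The labels' protocols give a stranded total RNA kit with removal of ribosomal RNA. Per gene symbol the authors deposited FPKM. Of tools, TopHat2 2.1.1 and Cufflinks 2.2.1 stand in the submitters' processing notes, with GRCm38 as the build. Neither the annotation nor the strand setting is given in the sources used here. The deposited files write FPKM with a decimal comma, read here as a decimal point. With FPKM alone the depth of a sample is unknown, and no counting interval is given. Exact zeros can be failed estimates, and such genes are given as listed at 0.

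The histone symbols and all gene lists were chosen with earlier results of these data known. Values were taken as log2(FPKM + 1), and differences on that scale, Shb-inactivated minus wild type, understate changes of low genes. The 12805 genes that reached 1 FPKM in 4 or more of the 10 libraries were fitted with limma 3.58.1 in R 4.3.3 (mean-variance trend, no covariate, two-sided), with Benjamini-Hochberg adjustment over all of them and a threshold of 0.05. The step was run on simulated data with independent noise per gene and shifts larger than that of any tested histone gene. That run does not measure its power for smaller shifts or for genes that vary together. An exact two-sided permutation test of the mean, over all 210 splits into 6 and 4, was run for single genes. Correlations of single genes with Mki67 and Top2a used 100000 permutations, two-sided, adjusted over the 12804 genes other than the one correlated with. Per the series text there were 6 and 4 mice, and a p-value reflects the spread between libraries.

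Genes named are Shb, Mki67 and Top2a, histone genes past the threshold or with groups that did not overlap, the 3 most abundant and the 2 of smallest p per family, those listed at 0 in some libraries and at 5 FPKM or more in others, the 2 most abundant of each pathway list, and the 5 genes most like the histone sum. Other names were chosen after their values were seen. The marker lists were endothelial, melanoma, macrophage and monocyte, B cell, T and NK cell, fibroblast and pericyte, erythroid and platelet. Positions and transcripts are from GENCODE vM21 (GRCm38) and promoters from RefSeq (GRCm38.p6).

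Alternatives changed the pseudocount (0.1 or 5), the filter (none, or a mean of at least 5 FPKM), the scaling (TPM or quantile), the weights, the treatment of zeros, a melanoma covariate, a replicate block and the libraries used. Those without 3 myeloid-rich libraries, without 3 libraries low in snoRNA and with summed snoRNA as covariate were chosen after seeing the data. Python 3.11.15, SciPy 1.17.1 and matplotlib 3.10.9 were used.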

Additional observations from a re-analysis of the deposited data

Results flagged for a closer look

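Within groups, 8 of 96 checks found a library far from the others of its group by Dixon's criterion, which chance gives in about 1 of 20 groups. Hist1h3a was at 146.13 FPKM in wild-type library 4, with the nearest at 70.7. Hist1h3f was at 135.38 FPKM in Shb-inactivated library 1, with the nearest at 69.3. Hist1h4b was low, at 35.81 FPKM, in Shb-inactivated library 5, with the nearest at 73.5. Hist1h2ba was at 3.36 FPKM in Shb-inactivated library 2 and at 9.08 FPKM in wild-type library 2, and listed at 0 in the others. Hist1h2bq was at 13.52 FPKM in wild-type library 2, with the nearest at 0.92. Outside the histone genes, Cstf2 was at 34.26 FPKM in Shb-inactivated library 1, with the nearest at 29.8, and Mxd3, which encodes a partner of Max, at 10.67 FPKM in the same library, with the nearest at 6.95.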

How the results depend on the processing

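Under all 23 alternatives 0 histone genes and 0 of all genes passed the adjusted threshold, at settings that left from 2 to 32 histone genes at an unadjusted p under 0.05. With TPM scaling 2 of 57 (3.51%) had such a p, beside 4.93% of all genes, and with library quality weights, which reported incomplete convergence, 32 (56.1%), beside 4.83%. The lowest adjusted p of a named gene was 0.382, shared by Shb, Hist3h2bb-ps, Hist2h2ab and Hist1h2bc with summed snoRNA as covariate. The median log2 fold change of the tested histone genes stayed below 0, from -0.73 to -0.030, and so did the log2 ratio of the sums, from -0.73 to -0.069, with both upper ends reached without wild-type library 4. The number of histone genes below 0 was lowest without that library, at 31 of 57. Among the 57 it was highest, at 56, without the 3 libraries low in snoRNA and with library quality weights. With no filter it was 64 of 71 genes. Leaving out 1 library gave these counts at an unadjusted p under 0.05. Without wild-type library 1 there were 14 histone genes (24.6%, beside 2.49% of all genes) and without wild-type library 3 also 14 (beside 5.28%). There were 2 (3.51%, beside 5.22%) without wild-type library 4 and 3 (5.26%, beside 3.16%) without wild-type library 2. There were 3 (beside 1.98%) without Shb-inactivated library 5 and 4 (7.02%, beside 3.62%) without Shb-inactivated library 4. Without the 3 libraries low in snoRNA there were 13 (22.8%, beside 4.33%). The correlation of the sum with Mki67 ran from 0.23 (without Shb-inactivated library 5) to 0.65, and with Top2a from 0.57 to 0.84. Depth is unknown, so its effect on low genes could not be given. Named genes gave 873 values under alternatives, of which 804 kept their direction and 69 changed sign; none of these passed the threshold, and the cause was not tested. The log2 fold changes that changed sign were as follows. Without the 3 libraries low in snoRNA it was -0.26 for Hist1h3e, -0.028 for Pcna, -0.038 for Cstf2, -0.025 for H3f3a and -0.045 for Set. Without the 3 myeloid-rich libraries it was -0.051 for Mcm6 and -0.10 for Set. Rescaled to a sum of 1000000 per library (TPM) it was 0.027 for Hist1h3f, 0.0040 for Slbp and 0.0093 for H2afz. With library quality weights it was -0.034 for Hist1h3e, -0.040 for Pcna, -0.052 for Mcm6, -0.094 for Cstf2 and -0.11 for Set. With the melanoma score as covariate it was 0.042 for Mki67, -0.042 for Pcna, -0.025 for Mcm6, -0.084 for Cstf2 and -0.077 for Set. With quantile normalization it was -0.059 for Set. With summed snoRNA as covariate it was 0.049 for Slbp and 0.036 for H2afz. Leaving out each library in turn gave -0.20 to 0.072 for Mki67, -0.37 to 0.0060 for Hist1h1d, -0.19 to 0.092 for Hist1h1c, -0.48 to 0.095 for Hist1h2ak, -0.42 to 0.074 for Hist1h2ab, -0.68 to 0.18 for Hist1h2bn, -0.35 to 0.15 for Hist1h3c, -0.33 to 0.17 for Hist1h3a, -0.27 to 0.33 for Hist1h3f, -0.53 to 0.091 for Hist1h4d, -0.59 to 0.073 for Hist1h4c, -0.096 to 0.20 for Pcna, -0.34 to 0.13 for Cdk1, -0.14 to 0.041 for Slbp, -0.0035 to 0.29 for Cstf2, -0.12 to 0.32 for H3f3a, -0.20 to 0.14 for H2afz, -0.055 to 0.12 for Set, -0.26 to 0.033 for Ulbp1, -0.25 to 0.080 for Mxd3 and -0.21 to 0.12 for Tyms.

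The replicate numbers of the labels were checked for pairing: deviations of libraries with the same number correlated at 0.44, -0.32, 0.71 and -0.55. These values cannot settle whether the numbers pair samples, because libraries also differ in cell content. Those numbered 3, for one, are rich in macrophage genes in both groups. The labels state no pairing, and the main fit used none. With the replicate block on numbers 1 to 4, 3 histone genes (5.26%) had an unadjusted p under 0.05, beside 2.39% of all genes, 40 of 57 were below 0, and the median was -0.23. This fit leaves out the Shb-inactivated libraries numbered above 4, among them the one with the lowest histone sum. The same 8 libraries without the block gave the same median of -0.23, with 2 such genes (3.51%, beside 2.3% of all genes). Each number holds 1 library of each group, so the block cannot change a log2 fold change and the equal median was fixed in advance. The block changes only the spread, and the median differs from the main fit through the libraries used. In the blocked fit of these 8 libraries the log2 ratio of the sums was -0.20, and the log2 fold change changed sign to 0.15 for Mki67, 0.13 for Hist1h1c, 0.21 for Hist1h2ak, 0.21 for Hist1h2ab, 0.20 for Hist1h3c, 0.12 for Hist1h3a, 0.19 for Hist1h3f, 0.048 for H2afz and 0.088 for Tyms.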
